A study of Mus musculus with 37 samples.

Results

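Receptors decide which cytokines and chemokines a myeloid cell can answer. The 53 genes described here encode cytokine, chemokine and tumour necrosis factor (TNF) receptors, and were chosen by name. A gene was taken if its symbol began as those of the interleukin, interferon, colony-stimulating factor, TGF-beta, activin, CC, CXC, CX3C and TNF receptor families do, leaving out Il10ra, Il10rb, Ccr3 and Ccr7, and if its value reached 10 in any of 18 groups. All 53 matching genes passed, out of 6509 genes in the table used here. The member with the lowest maximum was Il22ra2, at 29.5, so none lay just outside the limit. The table is a part of the transcriptome, and receptors such as Csf1r, Csf3r, Il4ra and Il6ra were not analysed here.

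RNA-seq was done on 5 mouse myeloid cell types of strain C57Bl6cJ: macrophages elicited into the peritoneum by thioglycollate and kept for adherence, neutrophils from bone marrow, dendritic cells enriched from spleen with magnetic beads (sDCs), and cultures of mast cells or of eosinophils derived from bone marrow. Macrophages, neutrophils, sDCs and mast cells were left untreated, given the anti-inflammatory cytokine IL-10, given the bacterial endotoxin LPS, or given IL-10 and then LPS (IL-10+LPS). Eosinophils were untreated or given LPS. Each agent was used at 100 ng/ml, IL-10 for 4 h before LPS and LPS for a further 4 h. The treatment scheme reads as a harvest at 8 h with LPS and at 4 h without it. On that reading, LPS and time in culture cannot be told apart. Neutrophils came from pooled mice and all their groups had been kept overnight in GM-CSF, the ligand of a receptor described here. Replicate 1 of the untreated and IL-10 macrophages is labelled as a re-analysis of earlier libraries.

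There is 1 value per group, the authors' mean of 2 replicates, so the spread between replicates is not known from these values and no difference below was tested. Values are tags normalized for GC content, summed over a gene's transcripts, and the depth behind them is unknown. For each cell type, genes below 10 in all of its groups were set aside. It is said to have risen or fallen where log2(mean + 1) differed by 1 or more, a 2-fold change on that scale, and the fold changes of low genes are understated by it. Beside each first count stands the share of all genes kept in that cell type that moved as far in that direction. Fewer cells of a type and less RNA per cell cannot be told apart in these bulk samples.

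As background, cytokine receptors are built from chains, of which some bind a single ligand and others are shared. The beta chain of the GM-CSF, IL-3 and IL-5 receptors (Csf2rb) and the common gamma chain of the IL-2 family (Il2rg) are shared in this way, and both pass their signal to JAK kinases and STAT factors. IL-1 and IL-18 receptors signal through MyD88, TNF receptors through TRAF adaptors, and the TGF-beta and activin receptors are kinases that act on SMAD proteins. Chemokine receptors couple to G proteins and steer migration: Cxcr2 draws neutrophils to inflamed tissue, Cxcr4 holds cells in the bone marrow and Ccr2 brings monocytes out of it.

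The cell types carried their own markers, with gaps. Epx, the eosinophil peroxidase, was at the table's maximum of 185338 in both eosinophil groups and Kit, the stem cell factor receptor of mast cells, at 86014.5 to 130854 in mast cells. Of 13 neutrophil markers 6 were in the table, and their sum was 64922.5 to 268873 in neutrophils against at most 9901 in any other cell type. Of 11 sDC markers 4 were in the table (Itgax, Xcr1, Clec9a and Btla), and their sum in sDCs, 3055.5 to 5142.5, lay below that in macrophages, 5569 to 13967.5. The neutrophil groups also held Epx at 18734 to 22781.5 and the B cell factor Pax5 at 615.5 to 762, and the untreated sDC group held Mpo, a granule enzyme of neutrophil precursors, at 4890.

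Upstream windows are shown for 6 members. They belong to Ccr2, lowered with LPS in several cell types, the neighbouring beta chain genes Csf2rb and Csf2rb2, and Il18r1, Il1rap and Ifngr2. Each is the 250 bases before the start of the gene's leading transcript on NCBIM37 (mm9) with the GENCODE vM1 annotation, 5′ to 3′ on the gene's strand. Other transcripts can start earlier. All of the Il18r1 window and most of the Ccr2 window lie inside the annotated genes, which start at 40522397 and 124016689. The Il1rap and Csf2rb2 windows overlap their genes in part. Capitals mark matches on either strand to a kappaB motif (GGGA and TTCC parted by any 2 bases), an IRF motif (GAAA and GAAA parted by any 2 bases) or a STAT motif (TTCNNNGAA). The windows are Ccr2 at chr9:124016672-124016921 (plus strand), Csf2rb at chr15:78156170-78156419 (plus), Csf2rb2 at chr15:78136034-78136283 (minus), Il18r1 at chr1:40522601-40522850 (plus), Il1rap at chr16:26581593-26581842 (plus) and Ifngr2 at chr16:91547067-91547316 (plus).
Ccr2: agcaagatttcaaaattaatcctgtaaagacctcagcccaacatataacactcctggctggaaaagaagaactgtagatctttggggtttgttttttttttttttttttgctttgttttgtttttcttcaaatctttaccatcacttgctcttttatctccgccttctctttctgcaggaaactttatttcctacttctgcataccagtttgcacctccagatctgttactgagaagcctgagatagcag
Csf2rb: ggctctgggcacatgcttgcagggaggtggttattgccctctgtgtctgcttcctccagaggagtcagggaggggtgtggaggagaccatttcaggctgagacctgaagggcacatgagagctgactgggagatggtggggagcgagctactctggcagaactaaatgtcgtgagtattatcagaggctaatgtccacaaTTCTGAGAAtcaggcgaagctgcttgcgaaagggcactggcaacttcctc
Csf2rb2: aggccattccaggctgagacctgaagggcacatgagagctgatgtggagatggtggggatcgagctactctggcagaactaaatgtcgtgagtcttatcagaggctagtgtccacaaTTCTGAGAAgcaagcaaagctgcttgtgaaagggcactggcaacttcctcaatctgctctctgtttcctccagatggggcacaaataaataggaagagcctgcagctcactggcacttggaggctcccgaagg
Il18r1: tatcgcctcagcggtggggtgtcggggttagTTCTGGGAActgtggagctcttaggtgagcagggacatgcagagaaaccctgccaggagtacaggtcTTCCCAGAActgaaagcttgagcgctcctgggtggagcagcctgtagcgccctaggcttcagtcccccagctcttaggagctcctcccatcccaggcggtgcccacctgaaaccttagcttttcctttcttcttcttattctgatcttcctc
Il1rap: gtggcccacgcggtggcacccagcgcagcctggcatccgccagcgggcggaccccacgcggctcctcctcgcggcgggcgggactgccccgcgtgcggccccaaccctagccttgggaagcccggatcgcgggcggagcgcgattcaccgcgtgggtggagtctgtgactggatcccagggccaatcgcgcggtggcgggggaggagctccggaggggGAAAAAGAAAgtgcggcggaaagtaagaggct
Ifngr2: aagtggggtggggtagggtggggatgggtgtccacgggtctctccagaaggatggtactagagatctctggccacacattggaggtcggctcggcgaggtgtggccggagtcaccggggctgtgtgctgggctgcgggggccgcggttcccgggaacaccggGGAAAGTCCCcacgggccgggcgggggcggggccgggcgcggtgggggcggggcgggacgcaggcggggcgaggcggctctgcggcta

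The Ccr2 window held none of these letters. Each of the others shown held a match, which most of the 53 members did not, so those shown are not typical of the members. The beta chain windows each held TTCTGAGAA, at -50 to -42 in Csf2rb and -133 to -125 in Csf2rb2, and laid on each other without gaps they shared 155 of 167 bases (92.8%). Il18r1 had a pair of STAT matches. The STAT motif was found in 5 of 53 members (Csf2rb, Csf2rb2, Ifnar1, Il18r1 and Tnfrsf1a) and in 6.16% of the 6489 windows of all genes. The kappaB motif was found in Ifngr2 alone among the members and in 1.23% of all windows. The IRF motif was found in Il1rap alone among the members and in 3.64% of all windows. The AP-1 motif TGANTCA was found in 1 member, Il17rc (4.78% of all windows), and the PU.1 core GAGGAA, which is not capitalised above, in 14 members (26.4% against 23.9%). These are matches of letters and not sites of binding.

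In untreated cells the receptors divided by cell type. Neutrophils and sDCs each had the highest level for 15 members, mast cells for 12, macrophages for 8 and eosinophils for 3. A level of 50 or more that was at least 4 times that of every other cell type was found for 14 members, 7 of them in sDCs.

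In neutrophils these were Cxcr2 and the IL-1 family members Il1r2 and Il1rl2. Cxcr2 was at 52728 in untreated neutrophils, 41.7 times the next cell type, eosinophils at 1265. Il1r2, the decoy receptor that binds IL-1 without signalling, was at 18376.5, 7.24 times eosinophils (2538.5). Il1rl2, the IL-36 receptor, was at 1271, 5.88 times macrophages (216).

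In mast cells they were Il1rl1, Ccr1l1 and Csf2rb2. Il1rl1, the IL-33 receptor, was listed at 199947, against 7657 in eosinophils. Its main transcript was at the table's maximum in all 4 mast cell groups, so the level is a lower bound and no change with treatment could be read there. Csf2rb2, the IL-3-specific beta chain, was at 151676, 4.37 times eosinophils (34733.5), and Ccr1l1, a close copy of Ccr1, at 675, 6.37 times eosinophils (106).

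In sDCs they were Il15ra, which presents IL-15 to other cells (1759.5), Il2rb, the beta chain for IL-2 and IL-15 (1142), Tnfrsf11a, the receptor RANK (6674.5), Cxcr6 (801), Cxcr7 (72), the activin receptor Acvr1c (89) and Il17re (55.5). Il17re was listed at 0 in all macrophage, neutrophil and mast cell groups, and Ccr8 was listed at 0 in every group outside sDCs, where it ran from 40.5 to 60. In macrophages the member was Il11ra1, the IL-11 receptor, at 2522 against 400.5 in mast cells (6.30 times); it has near-identical copies, and the authors' counting could split their reads.

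Per kilobase of transcript, which allows levels of genes to be compared, Cxcr2 (17373) and Il1r2 (13781) led in untreated neutrophils. Csf2rb led in sDCs (10195) and eosinophils (29434), Il1rl1 (at the ceiling) and Csf2rb2 (33802) in mast cells, and Ifnar2 (4384), a chain of the type I interferon receptor, in macrophages. A beta chain gene was thus among the leading 5 receptors in each of the 5 cell types. Csf2rb and Csf2rb2 are close copies, so their shares of reads are uncertain. The main Csf2rb2 transcript was also at the table's maximum in mast cells given IL-10. In untreated mast cells it was at 140169, the value of the main Csf2rb transcript in untreated eosinophils. High values thus recur between groups, and the levels of both genes are limited by this scale.

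**Figure D1:**
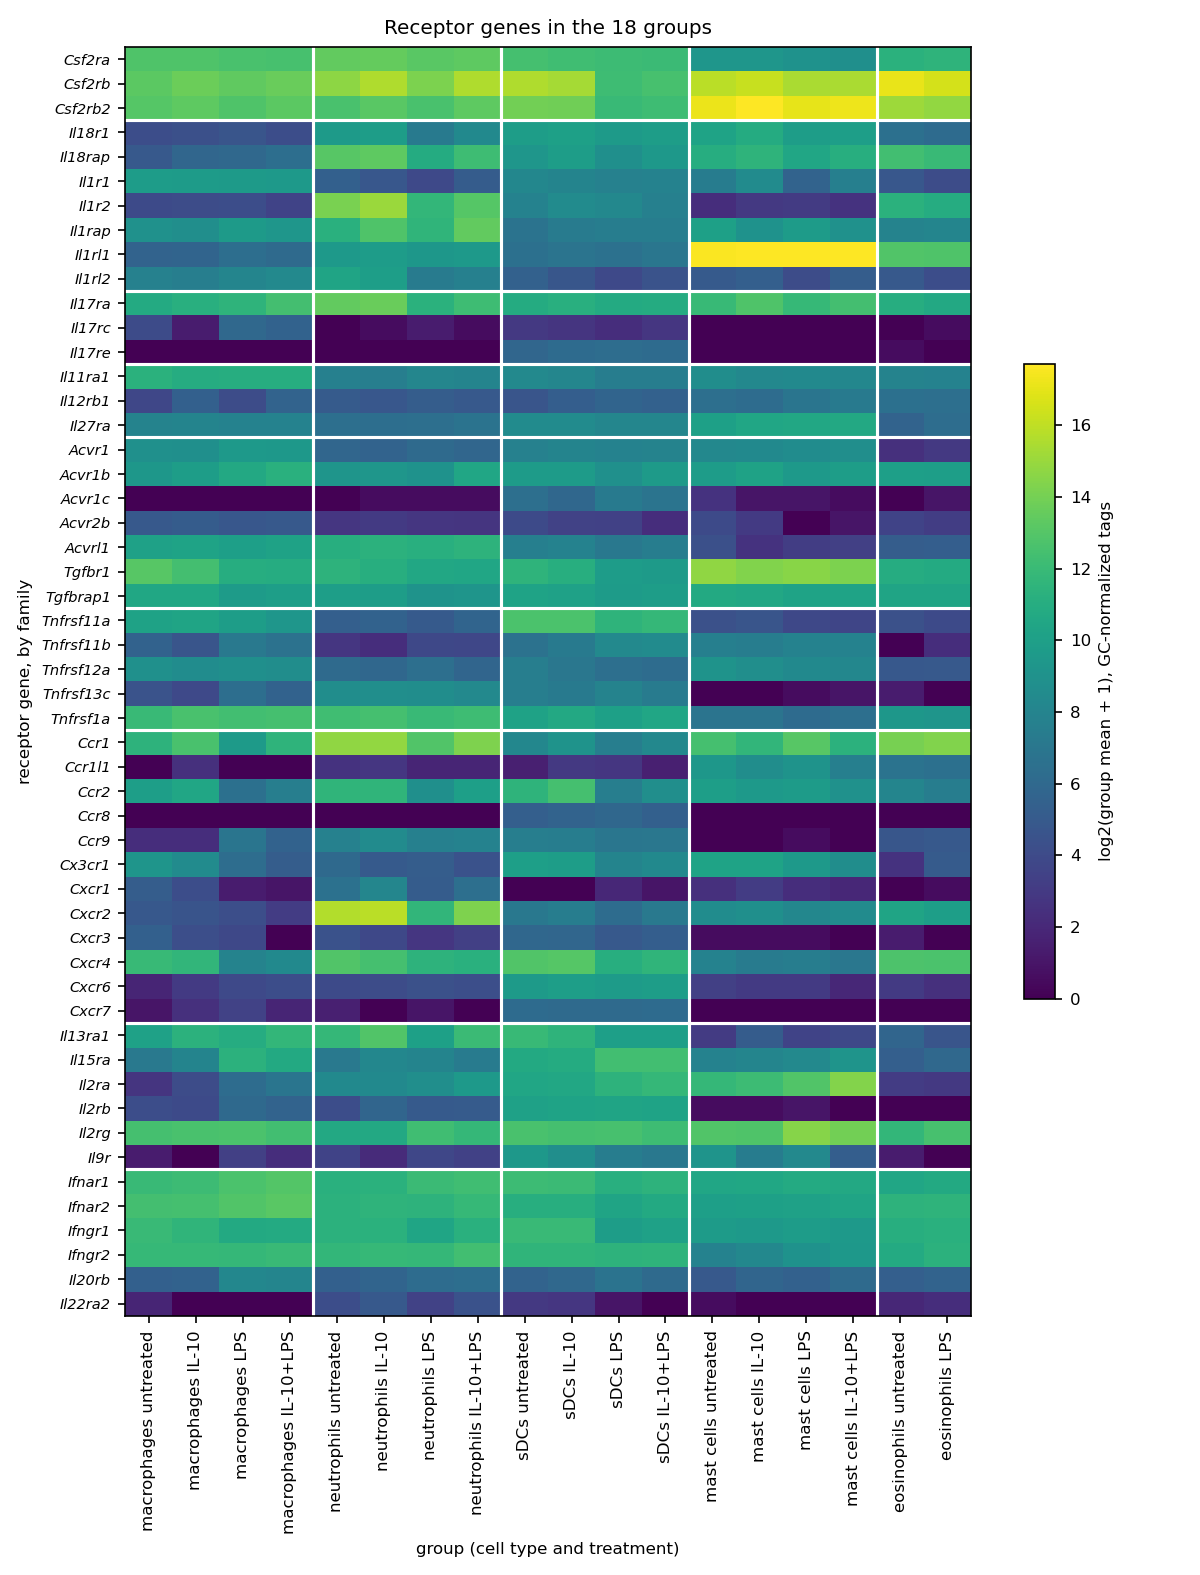
Levels of 52 of the receptor genes (rows, by family) in the 18 groups (columns), as log2(group mean + 1) of GC-normalized tags; white lines part families and cell types. Il1rl1 stands out in mast cells and Cxcr2 in neutrophils, where it goes from 52728 untreated to 3210 with LPS.

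The first comparison was of LPS with untreated cells. In macrophages 12 of 47 members kept rose and 9 fell, where 12.8% of all genes kept rose and 14.8% fell. In neutrophils 2 of 46 rose and 14 fell (8.71% and 7.90% of all genes), and in sDCs 4 of 49 rose and 14 fell (9.04% and 11.5%). In mast cells 3 of 40 rose and 3 fell (4.76% and 5.46%), and in eosinophils 1 of 38 rose and 1 fell (2.16% and 0.702%). As shares of the members kept, 30.4% fell in neutrophils and 28.6% in sDCs, each above the share of all genes, while the 19.1% in macrophages was nearer to it. The 25.5% that rose in macrophages was above the share of all genes, and the mast cell counts were of 3 genes in either direction.

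Macrophages were the cell type with a median log2 fold change of the members above 0, at 0.22 (all genes kept, -0.15). The median was -0.25 for neutrophils (all genes, -0.03) and -0.45 for sDCs (-0.14). Mast cells had -0.21 (-0.08) and eosinophils -0.08 (-0.02). The macrophage and sDC comparisons are thus shifted by more than 0.1 for genes at large, and relative to that shift the counts above stayed within 1.5 times.

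With LPS 14 members neither rose nor fell in any cell type, and 25 fell and 16 rose in at least 1. Among the members that fell in macrophages, neutrophils and sDCs alike were Ccr2 and Cxcr4, and the member that rose in all of these was Tnfrsf11b. The 2 that rose in some cell types and fell in others were Cx3cr1 and Il18rap. The share of all genes was not counted across cell types, so whether these counts of members are unusual is not known.

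**Figure D2:**
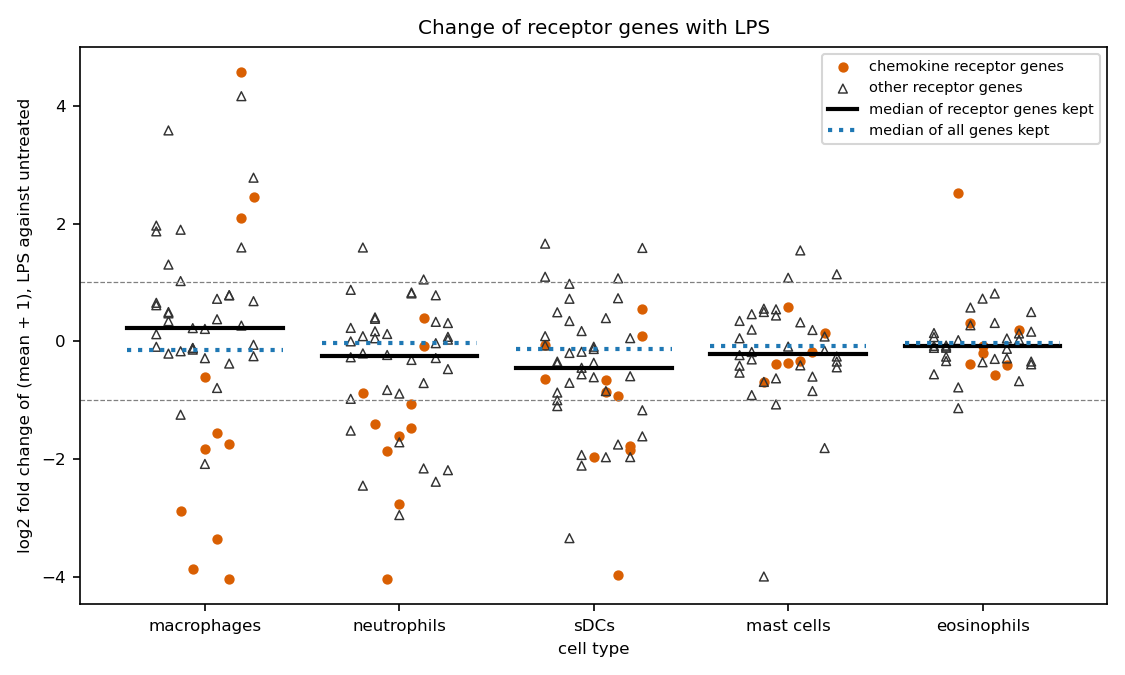
Log2 fold change of (mean + 1) with LPS against untreated for each member kept (points), in 5 cell types; filled circles are chemokine receptors, open triangles the others, bars the medians of members (solid) and of all genes kept (dotted), and dashed lines mark 2-fold. The chemokine receptors lie low in macrophages and neutrophils, with medians of -1.75 and -1.44, apart from 3 that rose in macrophages.

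Among the chemokine receptors, 7 of 11 kept fell in macrophages (14.8% of all genes kept). Neutrophils had 7 falls among 10 (7.90%) and sDCs 4 among 11 (11.5%). Mast cells had none among 7 (5.46%) and eosinophils none among 8 (0.702%). Ccr2, the receptor for CCL2 (chr9:124016689-124028296), went from 965 to 93 in macrophages, 3043.5 to 444 in neutrophils and 2986.5 to 190 in sDCs. These are log2 fold changes of -3.36, -2.77 and -3.97. In mast cells it was 948 untreated and 838.5 with LPS, and in eosinophils 269 and 179.5, neither a 2-fold change. In the macrophage groups the summed list of 6 macrophage markers went from 246820 to 136470, with Mrc1 at 8357.5 and 1998, Emr1 at 21201 and 16808 and Marco at 2002 and 5425.5, and its part in the falls was not tested.

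Cxcr4, the receptor for CXCL12, went from 3909 to 237 in macrophages, the largest fall there (-4.04). It went from 7770 to 2782 in neutrophils (-1.48) and 7779.5 to 2158 in sDCs (-1.85), and was 6938.5 and 6600 in eosinophils. Cxcr2, the neutrophil receptor for CXCL1 and CXCL2, went from 52728 to 3210 in neutrophils, also -4.04 and the largest fall there. Its neighbour Cxcr1, a close copy with which reads could be shared, fell in neutrophils (94.5 to 35) and macrophages (35.5 to 1.5).

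Ccr1 fell in macrophages (2812 to 793) and neutrophils (27739.5 to 7602.5) and was 5738.5 and 8602 in mast cells. Cx3cr1, the receptor for fractalkine, fell in macrophages (589 to 79) and sDCs (997 to 255), and rose in eosinophils from 5 to 33.5. That eosinophil value rests on low levels. Cxcr3, a receptor for interferon-induced chemokines, fell in macrophages (41.5 to 13.5) and neutrophils (20.5 to 6).

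Beside Cx3cr1 in eosinophils, the chemokine receptors that rose were Ccr9 (4 to 118), Cxcr7 (1 to 10) and Cxcr6 (2.5 to 14), these in macrophages. Ccr9 is known from lymphocytes homing to the gut. In the same groups the B cell genes Pax5 (2.5 untreated and 44 with LPS) and Cd79b (101 and 61.5) went opposite ways, and the part of other cells in the change was not tested.

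**Figure D3:**
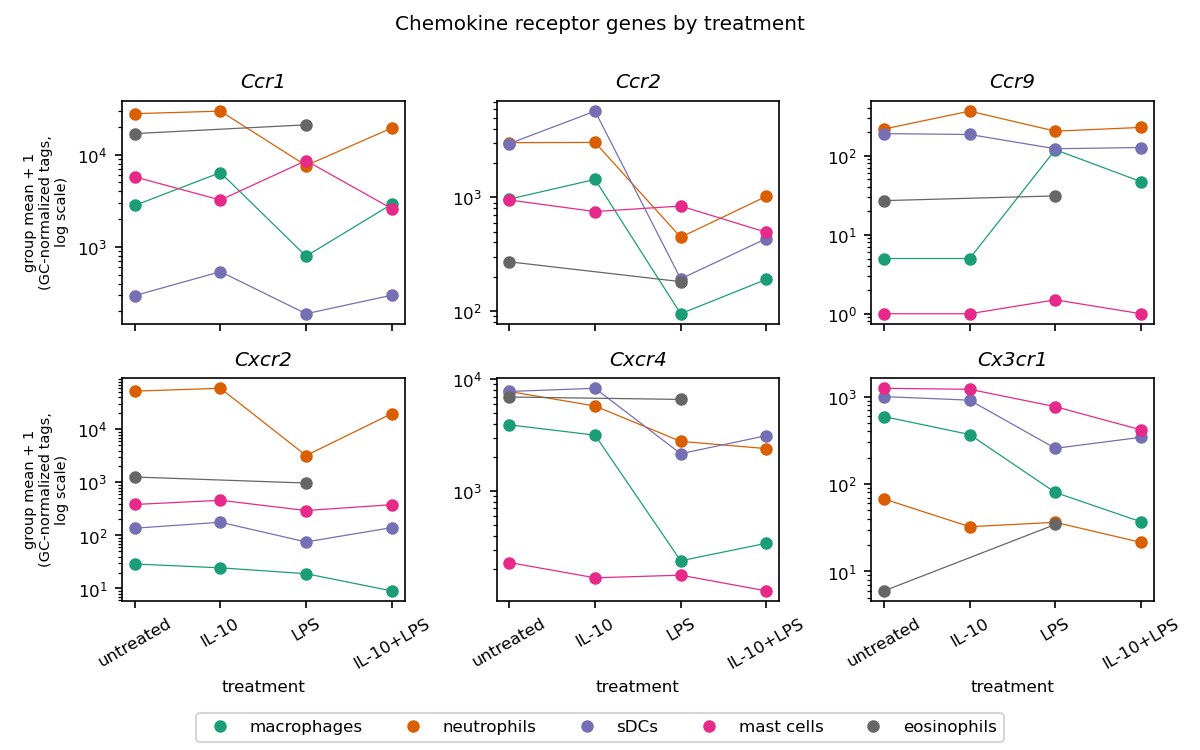
Group means plus 1 (GC-normalized tags, log axis) of 6 chemokine receptor genes by treatment, 1 point per group, coloured by cell type; lines join groups of a cell type and stand for no time course. Ccr2 and Cxcr4 are lower with LPS in macrophages, neutrophils and sDCs, and Ccr2 is higher with IL-10+LPS than with LPS in all 3.

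In the common gamma chain family, 3 of 5 members kept rose with LPS in macrophages and 2 of 5 in mast cells, with no fall in either. Of all genes kept, 12.8% rose in macrophages and 4.76% in mast cells. In neutrophils 1 of 6 rose and 1 fell (8.71% and 7.90% of all genes), and in sDCs 1 of 6 rose and 2 fell (9.04% and 11.5%). The neutrophil fall and 1 of the 2 sDC falls were of Il13ra1. It is counted in this group, although its type II receptor does not hold the common gamma chain. Il15ra (chr2:11626914-11655613) went from 145 to 2622 in macrophages, a log2 fold change of 4.17, and from 1759.5 to 5287 in sDCs (1.59). In neutrophils it was 141 and 248.5 and in mast cells 233 and 316, short of 2-fold. Its leading transcript is annotated as a retained intron.

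Il2ra, the IL-2 receptor alpha chain and direct neighbour of Il15ra, rose in macrophages from 5.5 to 77 (3.58) and in mast cells from 3621.5 to 7653 (1.08). In sDCs it was 1421.5 untreated and 2799.5 with LPS. Il2rg, the common gamma chain itself, rose in neutrophils from 1622 to 4898.5 (1.59) and in mast cells from 7752.5 to 22614 (1.54). It was 5612 and 6551.5 in macrophages, 6264 and 5874.5 in sDCs, and 3386.5 and 5947.5 in eosinophils.

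Il2rb rose in macrophages from 17 to 66 and stood at 1142 and 1288 in sDCs. Il9r, the IL-9 receptor, fell in sDCs from 697 to 177. Il13ra1, a chain of the type II receptor for IL-4 and IL-13, fell in neutrophils (3468 to 1053.5), sDCs (3896.5 to 994) and eosinophils (54 to 24) and was 1131.5 and 1950.5 in macrophages.

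In the IL-1 receptor family 5 of 7 members fell in neutrophils (median -2.19), 1 of 6 in mast cells and 1 of 7 in sDCs. Of all genes kept, 7.90% fell in neutrophils, 5.46% in mast cells and 11.5% in sDCs. In neutrophils Il1r2 went from 18376.5 to 3350.5 and Il18rap, the signalling chain for IL-18, from 8813 to 1928. Il18r1, its ligand-binding partner, went from 818.5 to 155.5, Il1rl2 from 1271 to 163 and Il1r1, the signalling IL-1 receptor, from 42 to 14. Il1rl1 (779.5 and 663) and Il1rap, the accessory chain shared by the receptors for IL-1, IL-33 and IL-36 (2367 and 3083.5), did not reach 2-fold. All 5 lie in 1 block of chromosome 1 (chr1:40141613-40608550), which also holds Il1rl1, whereas Il1rap lies on chromosome 16.

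The IL-17 receptor chain Il17ra fell in neutrophils too, from 11063.5 to 2471. Of the 6 neutrophil markers 3 moved with these receptors: Mmp8 was at 122455 untreated and 17265 with LPS, Mmp9 at 77310.5 and 12701.5 and Retnlg at 20356 and 3943.5. Mpo was at 22826 and 20675, Elane at 13402 and 10179 and Ly6g at 161.5 and 158.5. The summed neutrophil list went from 256511 to 64922.5, with no marker listed at 0. The summed list of 6 macrophage markers went from 144487 to 44399, most of it Itgam (136889 to 26225), which neutrophils also express, while Emr1 went from 4346 to 14667.5 and Mrc1 from 454.5 to 124.5. Their part in the falls was not tested.

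In other cell types the IL-1 family moved little with LPS. Il1r1 fell in mast cells from 171.5 to 48, Il1rl2 fell in sDCs from 45 to 14, and Il18rap rose in macrophages from 29.5 to 61. The IL-17 chain Il17rc rose in macrophages from 15.5 to 63.5.

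The beta chains fell in sDCs alone among the 5 cell types. Csf2rb (chr15:78156420-78184277) went from 48569 to 4769.5, a log2 fold change of -3.35, and Csf2rb2 (chr15:78112947-78136052) from 15543.5 to 4069 (-1.93). Csf2ra, the alpha chain of the GM-CSF receptor, was 5717.5 and 4499. In neutrophils Csf2rb was 26721 and 19250, and in eosinophils 140192 and 95014; a difference between cell types was not tested.

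Beside the sDC falls, the summed list of neutrophil markers went from 9028 to 2411. Mpo, the largest part of the untreated sum, went from 4890 to 714. Elane, Mmp8 and Retnlg were also lower with LPS in sDCs. Mmp9 went the other way, from 656 to 769.5, and Ly6g was low in both groups. Of the sDCs' own 4 markers, Itgax (4075.5 to 818.5) and Clec9a (243.5 to 49.5) fell, Btla rose (634 to 2172.5) and Xcr1 was at 189.5 and 201.5. The part of cell composition in the falls was not tested.

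Among the interferon receptors, Ifngr1, the ligand-binding chain for interferon gamma, fell in macrophages (4006.5 to 1685) and sDCs (4093 to 944.5). Its partner Ifngr2 was 3791.5 and 3495.5 in macrophages and rose in mast cells, from 234 to 516.5. Ifnar1 was 4179.5 and 6576 in macrophages and fell in sDCs from 4538 to 2264.5, just past 2-fold. Ifnar2 reached 2-fold in no cell type.

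Il20rb, a chain for IL-20 and IL-24, rose in macrophages (42.5 to 298) and sDCs (49.5 to 107). Il22ra2, the soluble IL-22 binding protein, was kept in neutrophils alone, at 17 and 10. Il12rb1, shared by the IL-12 and IL-23 receptors, rose in sDCs from 24 to 51.5, and Il27ra and Il11ra1 rose or fell in no cell type.

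Tnfrsf11b, the soluble RANK decoy osteoprotegerin, rose in macrophages (47 to 144), neutrophils (6 to 13.5) and sDCs (99 to 315), low values in neutrophils. Tnfrsf11a, the RANK receptor itself, fell in sDCs from 6674.5 to 2959. Tnfrsf12a, the TWEAK receptor, fell in sDCs from 188 to 87. Tnfrsf13c, the B cell receptor for BAFF, rose in macrophages from 22 to 83, beside the Pax5 and Cd79b values above. Tnfrsf1a, the main TNF receptor, was 4127 and 5229.5 in macrophages and 4878.5 and 4039.5 in neutrophils, and rose or fell in none.

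In the TGF-beta family Tgfbr1, the type I TGF-beta receptor, fell in macrophages (8866 to 2088) and sDCs (2942.5 to 870.5) and stood at 27183 and 24321 in mast cells. Acvr1b, an activin type I receptor, rose in macrophages from 673 to 1663. In mast cells Acvr2b went from 15 to 0 and Acvrl1 from 19 to 8.5, both low. Acvr1, Acvr1c and Tgfbrap1, a TGF-beta receptor-associated protein, reached 2-fold in no cell type.

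**Figure D4:**
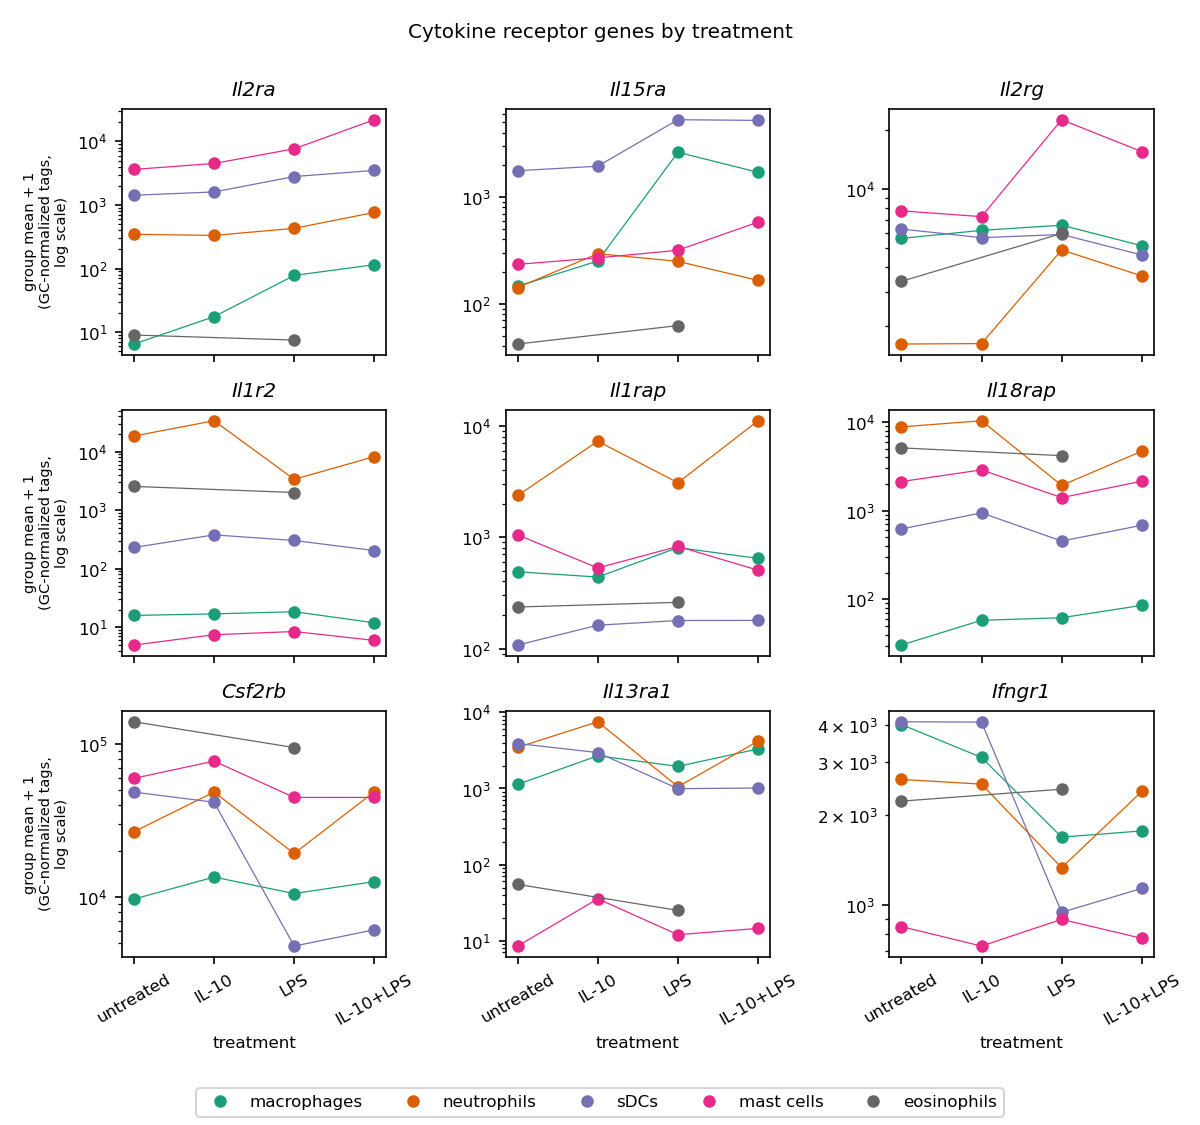
Group means plus 1 (GC-normalized tags, log axes with their own range) of 9 cytokine receptor genes by treatment, 1 point per group, coloured by cell type; lines join groups of a cell type. Il15ra goes from 145 to 2622 with LPS in macrophages, Csf2rb from 48569 to 4769.5 in sDCs, and Il1rap in neutrophils is at 7270.5 with IL-10 and 11108.5 with IL-10+LPS.

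The second comparison was of IL-10+LPS with LPS, that is, of IL-10 given before LPS. It shares the LPS groups with the first comparison, so a gene low in an LPS group tends to fall in one and rise in the other. In neutrophils 13 of 46 members rose and none fell, where 3.06% of all genes kept rose and 3.88% fell. In macrophages 4 of 47 rose and 5 fell (3.18% and 4.62%), in sDCs 2 of 49 rose and 1 fell (2.61% and 2.08%), and in mast cells 4 of 40 rose and 3 fell (2.88% and 4.66%). The median log2 fold change of members in neutrophils was 0.33, against 0 over all genes kept.

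Those that rose in neutrophils included the chemokine receptors Ccr1, Ccr2, Cxcr1 and Cxcr2, 5 of the IL-1 family (Il1r1, Il1r2, Il1rap, Il18r1 and Il18rap), Csf2rb, Il13ra1 and Acvr1b. Cxcr2 was at 3210 with LPS and 19833 with IL-10+LPS, a log2 fold change of 2.63, against 52728 untreated. Il1r2 was at 3350.5 and 8186, and Il18rap at 1928 and 4688.5, both still below untreated cells. Il1rap was at 3083.5 and 11108.5, Csf2rb at 19250 and 48829, and Acvr1b at 515.5 and 1408.5, all above the untreated levels of 2367, 26721 and 595.

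Il13ra1 in neutrophils was at 1053.5 with LPS and 4190 with IL-10+LPS (1.99). Ifngr1 was at 1332 and 2395 and Il17ra at 2471 and 4817, short of 2-fold. Between the same groups the summed neutrophil markers were at 64922.5 and 87094, with Mmp8 at 17265 and 29556, Mpo at 20675 and 20878 and Ly6g at 158.5 and 70.5. The summed macrophage markers were at 44399 and 47086.5, with Emr1 at 14667.5 and 5157.5 and Mrc1 at 124.5 and 613. Their part was not tested.

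Ccr2 was higher with IL-10+LPS than with LPS in macrophages, neutrophils and sDCs. It was at 93 and 188 in macrophages, 444 and 1021.5 in neutrophils and 190 and 432.5 in sDCs, 2.02, 2.30 and 2.28 times as high. In mast cells it was at 838.5 and 491. In macrophages, neutrophils and sDCs the values with IL-10+LPS stayed below the untreated ones.

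Ccr1 rose in macrophages (793 to 2901.5) and neutrophils (7602.5 to 19406) and fell in mast cells (8602 to 2599), a log2 fold change of -1.73. Ccr1l1 fell with it in mast cells, from 537.5 to 200. In macrophages Cx3cr1 (79 to 36), Ccr9 (118 to 46), Cxcr2 (18 to 8), Cxcr3 (13.5 to 0) and Cxcr7 (10 to 2.5) fell, and Il12rb1 rose from 16.5 to 48. In macrophages the chemokine receptors thus held all 5 falls and 3 of the 4 rises.

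In mast cells Il2ra went from 7653 with LPS to 21935 with IL-10+LPS (1.52) and Il1r1 from 48 to 199 (2.03). Il1rl2 rose from 16.5 to 36.5 and Acvr2b from 0 to 1, the latter no more than a value near 0. Il9r fell from 322 to 37.5, the largest fall there (-3.07). In sDCs the member that fell was Acvr2b, from 9.5 to 4.

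The third comparison was of IL-10 with untreated cells. In macrophages 7 of 47 members rose and 3 fell, where 2.34% of all genes kept rose and 2.18% fell. Neutrophils had 5 rises and 2 falls among 46 (1.26% and 0.941%). In sDCs 1 of 49 rose and none fell (1.60% and 0.843%), and mast cells had 2 rises and 3 falls among 40 (2.28% and 2.79%).

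Ccr1 rose with IL-10 in macrophages from 2812 to 6390.5 (1.18). Ccr2 was 2986.5 and 5775.5 in sDCs, short of 2-fold.

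Il13ra1 rose in macrophages (1131.5 to 2689), neutrophils (3468 to 7528.5) and, at low levels, mast cells (7.5 to 34.5), and was the one member that rose with IL-10 alone in 3 cell types. Il1rap rose in neutrophils from 2367 to 7270.5 (1.62), with Il15ra (141 to 293.5), Il2rb (17 to 52.5) and Cxcr1 (94.5 to 272). Csf2rb in neutrophils was 26721 and 48559, and Il1r2 18376.5 and 33488.5, both short of 2-fold. Il9r fell in mast cells from 579.5 to 170 (-1.76) and in neutrophils from 11 to 3.5, and Cx3cr1 fell in neutrophils from 66.5 to 31.5.

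The other members called with IL-10 alone were mostly low. In macrophages Il2ra (5.5 to 16.5), Il12rb1 (12.5 to 42), Cxcr6 (2.5 to 7) and Cxcr7 (1 to 4.5) rose, and Il17rc (15.5 to 1.5), Cxcr3 (41.5 to 18.5) and Cxcr1 (35.5 to 17) fell. In mast cells Il1r1 rose from 171.5 to 374, and Acvrl1 (19 to 5) and Acvr2b (15 to 7) fell.

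The comparisons of IL-10 without and with LPS share no group and can be set side by side. Members that rose in both included Ccr1 and Il12rb1 in macrophages, Cxcr1, Il13ra1 and Il1rap in neutrophils, and Il1r1 in mast cells. Those that fell in both were Cxcr3 in macrophages and Il9r in mast cells. Cxcr7 in macrophages and Acvr2b in mast cells, both low, went opposite ways. Across the members kept, Pearson's r between both log2 fold changes was 0.51 for macrophages (47 genes) and 0.43 for neutrophils (46), with 0.11 and 0.19 across all genes kept. For sDCs it was 0.52 (49 genes; all genes 0.30) and for mast cells 0.60 (40 genes; all genes 0.68). Both changes had the same sign for 33 of 47 members in macrophages and 35 of 46 in neutrophils. The counts were 26 of 49 in sDCs and 32 of 40 in mast cells, and were not made over all genes. The r for sDCs thus does not stand for a direction shared across the members. Genes are not independent replicates, and the groups of a cell type share its culture and normalization.

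**Figure D5:**
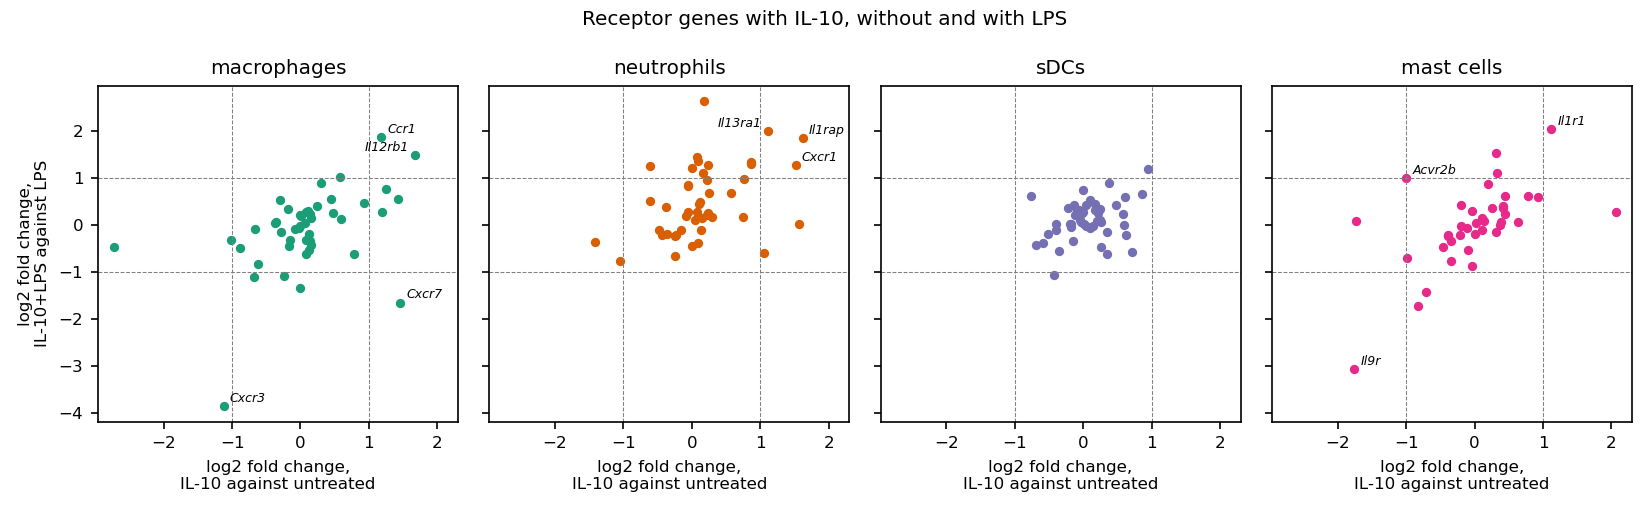
Log2 fold change of (mean + 1) with IL-10 against untreated (horizontal) and with IL-10+LPS against LPS (vertical) for the members of the heatmap that were kept (points) in 4 cell types; dashed lines mark 2-fold, and members past 2-fold on both axes are named. Il1rap is at the upper right in neutrophils (1.62 and 1.85), and Il9r at the lower left in mast cells (-1.76 and -3.07).

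By position, 35 of the 53 members lay in 12 clusters of neighbours within 1 Mb. The block on chromosome 1 with Il1r2, Il1r1, Il1rl2, Il1rl1, Il18r1 and Il18rap had 5 of 6 members fall with LPS in neutrophils (7.90% of all genes). With IL-10+LPS against LPS 4 rose there (3.06%). In mast cells 1 of 5 kept fell with LPS, and in eosinophils none of 6. On chromosome 16, Ifnar2, Ifnar1 and Ifngr2 reached 2-fold with LPS in 1 cell type each at most.

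Genes that act with these receptors were taken from lists. With LPS, 12.8% of all genes kept rose and 14.8% fell in macrophages, and 8.71% and 7.90% in neutrophils. The shares were 9.04% and 11.5% in sDCs, 4.76% and 5.46% in mast cells and 2.16% and 0.702% in eosinophils. Whether the counts of these short lists differ from those shares was not tested. Of 28 genes of JAK, STAT and SOCS proteins, 11 were in the table. With LPS 4 rose in macrophages, 3 each in neutrophils and sDCs, 2 in mast cells and none in eosinophils, and none fell. Stat2, which carries interferon signals, was raised in all 4 of these cell types, with 1348.5 and 9887 in macrophages.

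Jak3, the kinase bound to the common gamma chain, was higher with IL-10+LPS than with LPS in all 4 cell types given IL-10. Macrophages had 649 with LPS and 1335.5 with both, neutrophils 454.5 and 1738, sDCs 1036.5 and 2529, and mast cells 1455 and 6630. With IL-10 alone it rose in neutrophils (272 to 1194), sDCs (1229 to 2695.5) and mast cells (1477.5 to 5817). Others of the list that were lower with IL-10+LPS than with LPS included Cish in macrophages (644.5 and 276), Stat2 in neutrophils (6294 and 2509), and Socs2 (1112.5 and 269.5) in mast cells.

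Of 24 TNF receptor adaptors and related genes 14 were in the table, and with LPS 6 rose in macrophages and in mast cells, 4 in neutrophils, 3 in sDCs and 1 in eosinophils. Tnfaip3, the NF-kappaB inhibitor A20, rose in all 5 cell types, for example from 1224.5 to 19019.5 in neutrophils. Cd40 and Fas, TNF receptor family members outside the name rule, rose in 4, and Cd40 went from 264.5 to 9902.5 in macrophages. The one fall was Map3k14, the kinase NIK, in sDCs (12263 to 3478).

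Of 14 IL-1 receptor adaptors 6 were in the table. With LPS 3 rose in macrophages (Irak2, Peli1 and Tab2), 1 in neutrophils (Irak2) and 1 in sDCs (Peli1), and none fell. In neutrophils, where 5 of 7 receptors of this family fell, Irak2, a signalling component of the pathway, went from 2177 to 6931.

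Of 20 regulators of chemokine receptor signalling 14 were in the table, and 4 fell and 2 rose with LPS in macrophages, 4 fell and 1 rose in neutrophils, and 3 fell and 2 rose in sDCs. In mast cells 1 fell (Elmo1, 14726 to 5767) and in eosinophils none moved. Arrb1, beta-arrestin 1, and Rgs2, which shortens G protein signals, fell in all 3. Rgs2 went from 3510 to 338.5 in macrophages, 3875 to 606.5 in neutrophils and 2970.5 to 770 in sDCs. Rgs1, another of these, rose with LPS in neutrophils (92.5 to 672) and sDCs (11197.5 to 23763.5). It was lower with IL-10+LPS than with LPS in neutrophils (149.5) and macrophages (4008 and 1656.5), and at 17049.5 in sDCs, short of 2-fold. Of 18 partners of TGF-beta receptors 5 were in the table, with 1 fall in each of macrophages (Bambi), neutrophils and sDCs (Tgfb3). Of 10 genes for receptor shedding and trafficking 7 were in the table; with LPS 1 rose and 1 fell in both macrophages and sDCs, and 1 rose in neutrophils and in eosinophils. Adam10, a protease that cuts receptors from the surface, fell in macrophages (9606 to 3551) and sDCs (4864.5 to 2071.5).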

How the data were processed

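Libraries of 2 replicates from each of 18 groups were summarised by the authors by counting tags on Ensembl transcripts of mm9 (RSEM 1.2.1, using Bowtie 0.12.9), and normalized for GC content with EDASeq. The deposited score columns hold the authors' mean per group. All 18 columns share 1 maximum, 185338, so values at the top are compressed alike in each. Of the lines read, 17015 were complete and 1 was cut short; 22 without a gene name were left out, leaving 16993 transcripts of 6509 genes. The sample without a column (1 of 37) was not used here. The depth is unknown, so no counting interval or limit for a value of 0 is given.

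Values were summed per gene name (110 transcripts for the 53 members) in Python 3.11.15 with numpy 2.4.6, pandas 2.3.3 and matplotlib 3.10.9. A gene was kept in a cell type where a group mean reached 10, the log2 fold change was taken with a pseudocount of 1, and 2-fold or more was called. No test was run, since there is 1 value per group. The code that makes the calls was tested on simulated data. The members and gene lists were chosen with earlier results of these data known. Named genes were those called with LPS in 3 or more cell types, the largest changes of each comparison among members at 50 or more, those at least 4 times higher in 1 untreated cell type, and a textbook set; the rest were added to account for the members. Counts cover all 53 members, 1 of which is not reported here by name or value. All 53 members were placed on NCBIM37 with GENCODE vM1. Alternatives were a pseudocount of 10, a minimum of 50, no filter, centring on the median of all genes, and the transcript with the highest mean in place of the sum.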

Additional observations from a re-analysis of the deposited data

How the results depend on the processing

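No paired analysis was possible because the columns hold means of both replicates, and for the same reason fits with a replicate block and without single replicates were not run. No named log2 fold change called at 2-fold changed its sign under the 5 alternatives, where the gene was kept. Sign changes of smaller values were not recorded, and counts were compared by size alone. Of the recomputed counts, 84 of 110 stayed within 1.5 times, and centring moved no count beyond that. Of the recomputed log2 fold changes of named genes, 34 crossed the 2-fold line and 2239 did not. The crossings were 17 with a pseudocount of 10, 14 with the leading transcript and 3 with centring. A minimum of 50 or no filter leaves a fold change as it is, so the 418 and 464 values under those settings could not cross. Nor could values of the 25 members with 1 transcript cross with the leading transcript. With a minimum of 50, the members called with IL-10 alone went from 10 to 5 in macrophages and 5 to 2 in mast cells, falls with IL-10+LPS against LPS from 5 to 2 in macrophages and 1 to 0 in sDCs, rises in the same comparison from 4 to 2 in mast cells, falls with LPS from 3 to 1 in mast cells, and rises with LPS from 2 to 1 in neutrophils and 1 to 0 in eosinophils. With a pseudocount of 10, IL-10 alone gave 5 in macrophages and 3 in mast cells, falls with IL-10+LPS against LPS were 2 in macrophages and 0 in sDCs, rises 2 in mast cells, falls with LPS 0 in eosinophils, and rises with LPS 1 in neutrophils and 2 in sDCs. With no filter, IL-10 alone gave 2 in sDCs, falls with IL-10+LPS against LPS were 5 in mast cells, 1 in neutrophils and 4 in sDCs, and with LPS 4 fell and 3 rose in eosinophils. With the leading transcript, IL-10 alone gave 2 in sDCs, falls with IL-10+LPS against LPS 1 in neutrophils, and rises with LPS 4 in neutrophils and 2 in eosinophils. These moves of the counts come from genes at low values, by the construction of the alternatives, except with the leading transcript, where the cause was not tested. Unknown depth limits what can be said of members under about 50.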
